A study of Mus musculus with 16 samples.

Results

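Translation initiation factors are the proteins that load a messenger RNA onto the ribosome and set its start codon. The genes described here are the 47 protein-coding rows, of 55385 rows in the deposited expression table, whose symbols begin with Eif1 to Eif6. They remained after 7 rows for the eIF2 kinases and the 4E-binding proteins and 3 rows on chromosomes X and Y were set aside from the 57 protein-coding rows with such symbols, and a further 11 matching rows were not protein coding. By the number in the symbol, 4 were eIF1 genes, 9 eIF2 genes, 14 eIF3 genes, 15 eIF4 genes, 4 eIF5 genes and 1 the eIF6 gene. Of these, 46 had at least 1 FPKM (fragments per kilobase of gene, scaled to the size of the library) in at least 4 libraries and were tested. The exception was Eif4e1b, which had no library above 0.367 FPKM.

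Initiation begins when eIF1, eIF1A, eIF3 and eIF5 gather on the small ribosomal subunit with eIF2, the GTPase that carries the initiator tRNA. The eIF4 proteins bind the cap of the messenger RNA (eIF4E), bridge it to the ribosome (eIF4G) and unwind it (eIF4A with eIF4B or eIF4H). After the start codon is found, eIF5 triggers GTP hydrolysis on eIF2, eIF2B reloads eIF2 with GTP, and eIF5B joins the large subunit, from which eIF6 has to be released. eIF5A carries the amino acid hypusine and helps the ribosome through slow peptide bonds, so it also serves elongation. In microglia, the resident macrophages of the retina, protein synthesis is regulated through these factors by growth and stress signals.

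The libraries came from cells of Iba1-EGFP mice, sorted from the retina by fluorescence and labelled microglia. All 4 groups carried the reporter, which follows the promoter of Iba1 (Aif1), a gene that other macrophages use too. Day 0 was untreated at 15 weeks of age, and days 2, 4 and 7 followed an optic nerve crush, which injures the axons of retinal ganglion cells, at 13, 13 and 16 weeks. Each day had 4 libraries, 16 in all, and age cannot be told apart from day except between days 2 and 4. The labels do not say whether libraries of a day came from separate or pooled animals, so p-values measure the spread between these samples only, which may be technical.

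Depth, as recovered from the table, ran from 8647276 to 15708302 reads per library, and 9315 to 16522 genes reached 1 FPKM. All 12 microglia markers were above 0 in every library, with Aif1 between 130.0 and 961 FPKM. Transcripts of other retinal cells were present too. The 10 rod markers summed to 2490 to 12147 FPKM at day 0 and to 1988 to 5098 at day 4. The 10 bipolar cell markers summed to 69.5 to 394 FPKM at day 0, 15.1 to 154 at day 2, 8.34 to 54.6 at day 4 and 75.4 to 359 at day 7, so days 0 and 4 did not overlap. At day 4, Cabp5 was listed at 0 in 3 of 4 libraries and Aqp4, of the 12 Mueller glia and astrocyte markers, in all 4. The summed level of those 12 was 2352 to 4482 FPKM at day 0 and 640.1 to 6561 at day 4, of which Apoe, a gene that microglia also express, made up 49.5% to 98.7%. Without Apoe the other 11 summed to 193 to 2264 FPKM at day 0 and 84.7 to 168 at day 4, with no overlap, and Rlbp1 (58.6 to 426.5 against 0.509 to 16.7) and Glul (51.9 to 322 against 16.9 to 38.8) did not overlap either. Days 0 and 4 overlapped for the rest of the list, such as Vim (0 to 46.75 against 0 to 10.1) and Kcnj10 (0.00672 to 4.58 against 0 to 3.57). Gfap went the other way, at 0 to 0.0699 FPKM at day 0 and 0 to 9.06 at day 4. Day 0 replicate 1 stood apart, with a microglia marker sum of 6275 FPKM against 14818 to 24770 in the other day 0 libraries, and with marker sums of 397 for endothelial cells and pericytes, 418 for erythrocytes and 1911 for cones. Day 0 replicate 2 had 130.2 for endothelial cells and pericytes, where replicates 3 and 4 had 0.0634 and 0.106. In day 7 replicate 4, the library with the fewest genes at 1 FPKM, 34 of the 47 factors reached it, against 46 in day 0 replicate 1, which had the most genes.

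The promoters of Eif5a, Eif4a1 and Eif4e are shown because these genes rose at day 4, by the test given with each below, and because their windows hold the letters CACGTG, the E-box bound by basic helix-loop-helix factors such as Myc. Each run is written 5′ to 3′ on the strand of the gene, in lower case with CACGTG in capitals. The source is the RefSeq promoter table for GRCm38.p6. The Eif5a run is the 250 bases before 1 of its 6 listed starts, at chr11:69921387-69921636 on the minus strand, within the gene but in no exon of the deposited table:
Eif5a: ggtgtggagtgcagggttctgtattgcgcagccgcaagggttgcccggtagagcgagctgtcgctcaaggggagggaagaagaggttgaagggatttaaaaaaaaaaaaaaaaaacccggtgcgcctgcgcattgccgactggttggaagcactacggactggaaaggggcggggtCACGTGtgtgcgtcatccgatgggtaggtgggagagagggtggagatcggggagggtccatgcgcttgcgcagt
The Eif4a1 run is the 250 bases before its single listed start, at chr11:69672424-69672673 on the minus strand:
Eif4a1: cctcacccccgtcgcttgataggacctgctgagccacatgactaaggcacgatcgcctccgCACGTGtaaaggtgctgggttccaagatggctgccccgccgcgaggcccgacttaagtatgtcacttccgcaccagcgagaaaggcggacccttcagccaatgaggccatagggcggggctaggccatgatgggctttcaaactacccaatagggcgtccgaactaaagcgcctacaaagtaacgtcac
Eif4e held the motif at 2 places before 1 of its 2 starts, shown as 26 bases around each, at chr3:138527030-138527055 and chr3:138527194-138527219 on the plus strand, both within annotated exon sequence of Eif4e:
Eif4e, first: cgccagcgacCACGTGatcacttttt
Eif4e, second: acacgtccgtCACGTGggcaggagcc

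The motif began 74 bases before the start in Eif5a, 189 in Eif4a1, and 228 and 64 in Eif4e. Windows of 300 bases (250 before and 50 after a start) were listed for 36 of the 47 factors, and 12 motifs were searched on both strands. CACGTG was in a window of 10 of the 36 (Eif1b, Eif3a, Eif3f, Eif3k, Eif4a1, Eif4e, Eif4g1, Eif4h, Eif5a and Eif5a2), 27.8%, and in 8.09% of all 27025 genes with a window. It was in 3 of the 7 factors called at day 4 and in 3 of the eIF3 genes, none of which was called then. GGGCGG, the GC box, was in 75.0% of the 36 and 38.2% of all genes, CCAAT in 38.9% and 41.1%, CCGGAAGT, an ETS site, in 19.4% and 4.31%, and TATAAA in 8.33% and 15.7%. CGCATGCG was in 8.33% and 2.07%, and the longer NRF1 palindrome, which contains it, in 2.78% and 1.07%. TTTCGCGC, an E2F site, was in 2.78% and 0.374%, and the core of the ZNF143 site in 2.78% and 0.322%. TGACGTCA, the cyclic AMP response element (2.03% of all genes), the ZBTB33 palindrome (0.525%) and a kappa-B site (0.115%) were in none of the 36. These are letter matches, not binding sites.

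Summed over all 47 genes, initiation factor transcripts were highest in the 4 day 4 libraries. Their FPKM added up to 1457, 1403, 1541 and 1585 at day 0, 1723, 1391, 1679 and 1559 at day 2, 2695, 2809, 3234 and 3329 at day 4, and 1554, 1270.4, 1533 and 1628 at day 7. No day 4 library overlapped any other. As a share of all FPKM of the library, the factors took 0.503% to 0.595% at day 4 and 0.164% to 0.339% on the other days. Eif5a alone made up 24.65% to 27.0% of the summed factors at day 4 and 10.02% to 18.65% elsewhere, but the remaining 46 genes also summed higher at day 4, to 1974 to 2508 FPKM against 1125 to 1490 (Eif5a left out). By factor, the day 4 sums stood apart from all other libraries for eIF2 (188 to 332 FPKM against 54.5 to 145), eIF4 (527 to 550.5 against 235 to 388) and eIF5 (770.3 to 880.0 against 159 to 309). The eIF1 sums of day 4, 379.7 to 634 FPKM, overlapped those of day 0, which reached 442.5. The eIF3 sums, 636 to 968 FPKM, met those of day 2, which reached 638, and Eif6 at day 4 overlapped day 7. In bulk RNA, fewer cells of a type and less RNA per cell cannot be told apart.

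**Figure D1:**
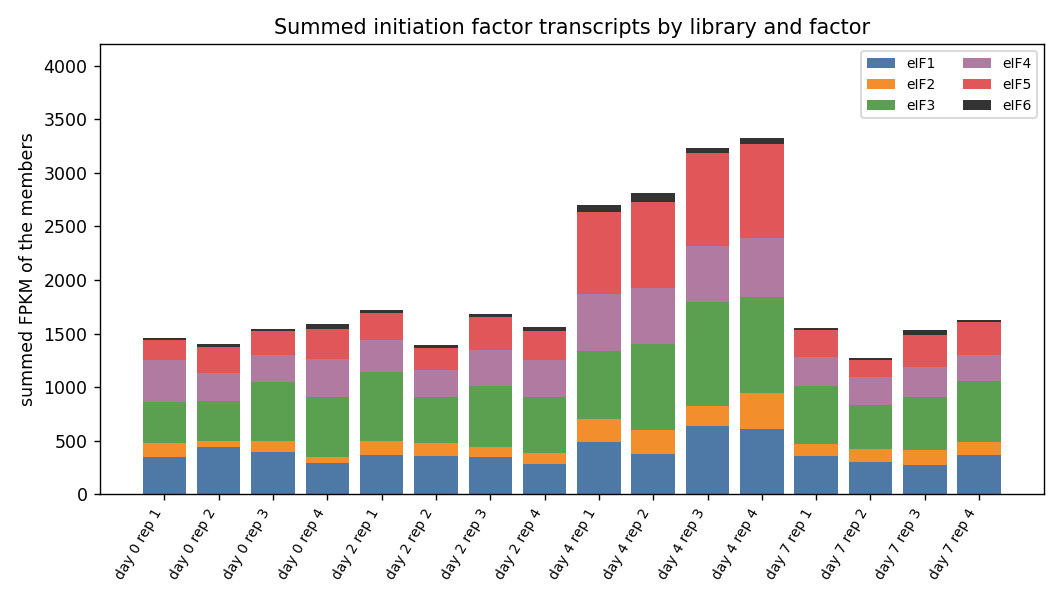
Summed FPKM of the 47 initiation factor genes in each of the 16 libraries, with each bar divided by factor. The 4 day 4 bars reach 2695 to 3329 FPKM, and all other bars stay at or below 1723.

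Against day 0, 7 of the 46 tested factors rose at day 4 and none fell, in limma's test at a Benjamini-Hochberg adjusted p under 0.05, taken over all 14795 genes. Over all genes, 4.62% were called higher in this comparison and 0.716% lower, 5.34% in either direction. The 7 were Eif5a, Eif4a1, Eif4a3, Eif4e, Eif2s1, Eif3m and Eif1ad. At an unadjusted p under 0.05 there were 23 factors (50%, against 20.9% of all genes), and 38 of 46 (82.6%, against 56.0%) had a change above 0. The median change was 0.97 on log2(FPKM + 1), against 0.16 over all genes tested. All 4 day 4 libraries lay above all 4 day 0 libraries for 18 of the 46, 39.1%, where 12.6% of all genes did so. This count and those below include near-identical genes, Eif4a3 with Eif4a3l1 and Eif4a3l2, and Eif3j1 with Eif3j2, which are not independent.

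The count changed with the scale and with a covariate made from markers of other cells. When each library was rescaled by a median-of-ratios factor, the changes of all genes at day 4 shifted by -0.33 on the log2 scale, all genes called went from 684 higher and 106 lower to 154 and 118, and 2 factors, Eif4a1 and Eif5a, were called. The median over the factors was then 0.54 and that over all genes -0.17. With the mean log2 level of the bipolar and Mueller glia lists as a covariate none of the 46 was called, with Eif5a at 1.68 and Eif4a1 at 2.41 on the log2 scale and an adjusted p of 0.0859 for each, and no gene of all 14795 was called either. This covariate, whose lists include Apoe, was 2.88 to 5.62 at day 0 and 1.57 to 2.46 at day 4, without overlap. The fit thus separates it poorly from the day, and a call lost there need not mean a smaller change. The part of other cells in the day 4 values was not tested. Without day 4 replicate 2 the count was also 2, again Eif4a1 and Eif5a, without day 0 replicate 2 or day 4 replicate 4 it was 4, and without day 0 replicate 1 it was 6. Within batch 1, read from the first digits of the code in the sample titles (replicates 1 and 2 of each day), 2 were called, and within batch 2 none.

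**Figure D2:**
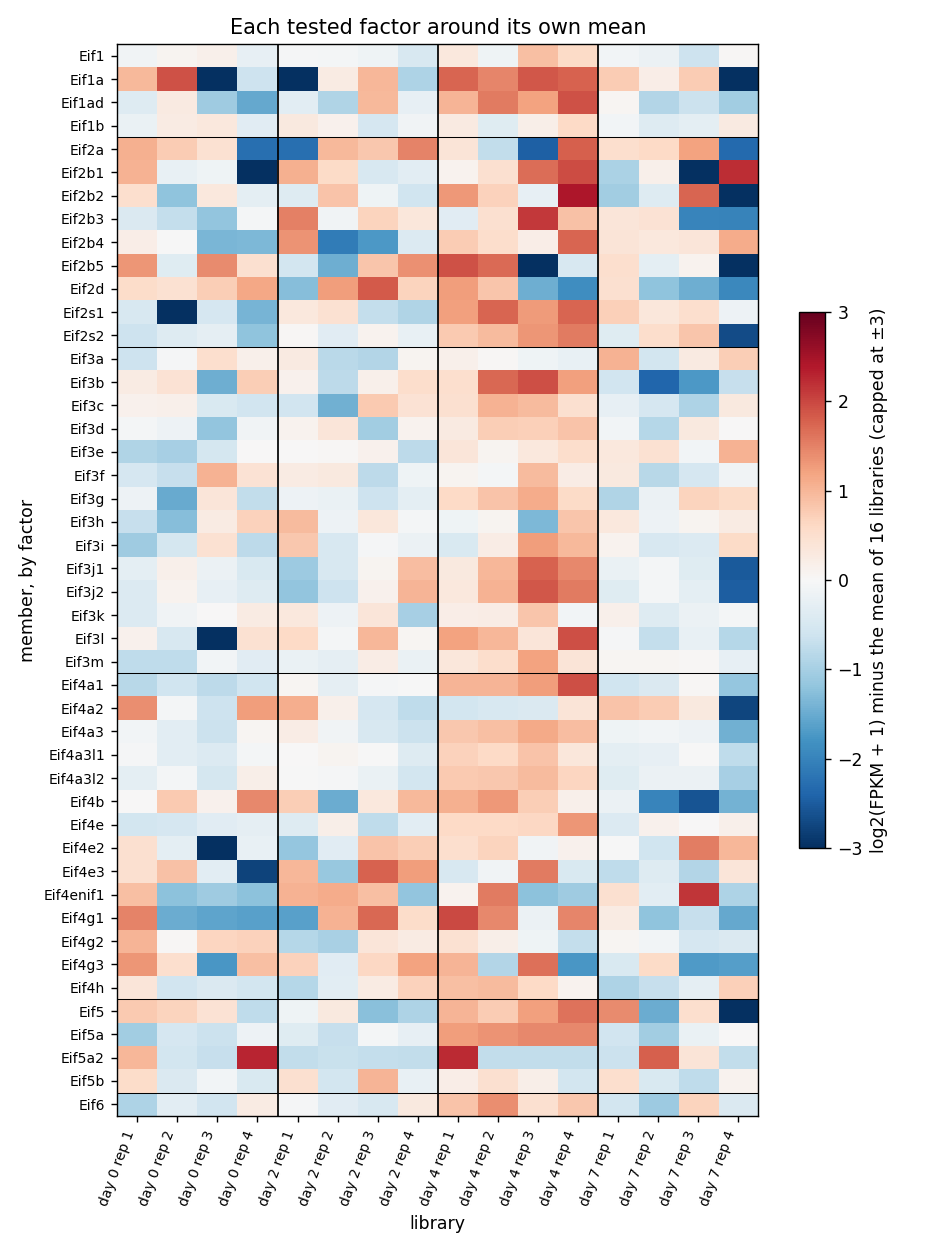
Each of the 46 tested factors (rows, by factor) in the 16 libraries (columns), as log2(FPKM + 1) minus its mean over all libraries, capped at 3 either way. The day 4 columns are mostly red, with Eif4a2, Eif4g2 and Eif5a2 among the exceptions, and the dark blue cells are single libraries far below the mean of their gene.

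**Figure D3:**
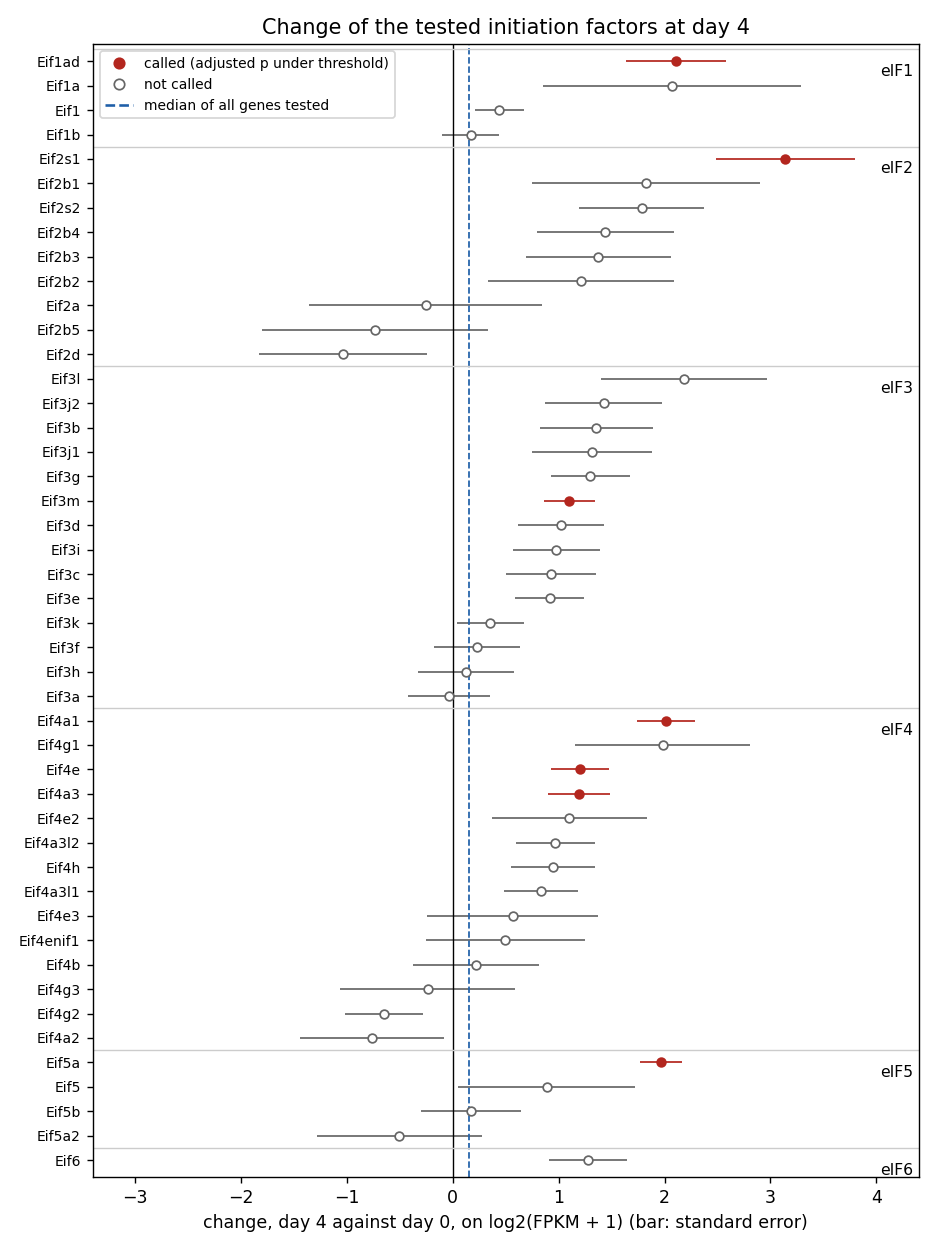
Change of each tested factor at day 4 against day 0 on log2(FPKM + 1), with the standard error of the limma fit, grouped by factor. The 7 called factors are filled, 38 of the 46 lie above 0, and the dashed line marks the median of all genes, 0.16.

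Among the eIF1 genes, 1 of 4 was called at day 4. Eif1ad, a protein with an eIF1A-like domain (chr19:5366741-5371526), was at 11.5, 18.8, 6.845 and 4.63 FPKM at day 0 and at 12.1, 7.68, 31.2 and 12.7 at day 2. It was at 32.3, 47.4, 36.9 and 60.6 FPKM at day 4, and at 16.1, 7.88, 9.45 and 6.87 at day 7. The day 4 libraries lay above all others. Its change at day 4 was 2.104 ± 0.47 (SE, n = 4 a day, limma adjusted p = 0.0193), at 1.35 in batch 1 and 2.86 in batch 2, and was not called without day 0 replicate 4, day 4 replicate 2 or day 4 replicate 4. Of its exon bases, 15.3% lie in exons of Banf1 on the other strand, which averaged 93.8 FPKM, and the kit does not mark strand.

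Eif1, which guards the choice of start codon, averaged 232 FPKM over the 16 libraries, second to Eif5a, and 222 at day 0, where it was the most abundant factor. It stood at 209, 239, 251 and 189.7 FPKM at day 0, 219.7, 214, 206 and 162 at day 2, 279, 207, 419 and 334.5 at day 4, and 212, 198, 146 and 232 at day 7, and days 0 and 4 overlapped. The change at day 4 was 0.44 ± 0.23 (SE, limma adjusted p = 0.303), and -0.03 after rescaling by median of ratios. With 16 near-identical copies added in, the change was 0.45. These copies held a median of 37.0% of the reads of all together, so the level and rank of Eif1 are uncertain. Its close relative Eif1b was at 94.3, 128, 134 and 85.0 FPKM at day 0, 132, 119, 76.0 and 100.2 at day 2, 129.8, 83.7, 123 and 164.5 at day 4, and 103, 82.8, 87.7 and 131 at day 7. Its day 4 change, 0.17 ± 0.27 (SE, limma adjusted p = 0.769), was smaller than its error. Eif1a, which works beside Eif1 in scanning, was uneven at day 0, from 0.204 to 57.4 FPKM, and even at day 4, from 41.8 to 55.5.

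Of the 9 eIF2 genes, the alpha subunit Eif2s1 (chr12:78861819-78887010), the protein that stress kinases phosphorylate to slow initiation, was called at day 4. It was at 19.3, 0.526, 18.7 and 9.76 FPKM at day 0, 33.9, 37.5, 16.1 and 13.9 at day 2, 64.7, 93.2, 66.7 and 93.8 at day 4, and 45.2, 34.65, 38.8 and 24.4 at day 7. Day 4 was above every other library, and day 7 above every day 0 library. The change at day 4 was 3.14 ± 0.66 (SE, limma adjusted p = 0.0135), the largest of any factor, and 2.204 without day 0 replicate 2, its lowest library at 0.526 FPKM. At day 7 it was 2.00 ± 0.66 (SE, limma adjusted p = 0.237). The day 4 call was lost without day 4 replicate 2 (limma adjusted p = 0.0519). It held in 7 of 13 other settings, and was lost with median-of-ratios scaling. Near-identical copies of Eif2s1, 2 in all, held a median of 10.8% of the reads of all together, and with them added in the day 4 change was 3.18.

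The other eIF2 genes were not called. The beta subunit Eif2s2 was at 5.02 to 10.5 FPKM at day 0 and 22.9 to 40.4 at day 4, with no overlap and a change of 1.79 ± 0.59 (SE, limma adjusted p = 0.0927). The pseudogene Gm9892, 99.5% identical over 992 bases, held a median of 27.0% of the reads of both, so the level of Eif2s2 is uncertain. Of the 5 genes for eIF2B, the factor that exchanges GDP for GTP on eIF2, Eif2b4 also had its day 4 libraries (13.2 to 40.8 FPKM) above day 0 (3.83 to 13.19), with a change of 1.44 ± 0.65 (SE, limma adjusted p = 0.223). Eif2b5, the catalytic subunit, ranged from 0.120 to 38.7 FPKM at day 4 and from 7.12 to 26.95 at day 0. Eif2a and Eif2d, which bear the name but are separate proteins that deliver tRNA without eIF2, were at or below 17.7 and 13.4 FPKM in every library.

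Among the 14 eIF3 genes, the scaffold on the small subunit, 13 (92.9%, against 56.0% of all genes) had a day 4 change above 0 and 10 (71.4%, against 20.9%) an unadjusted p under 0.05, but 1 was called. Eif3m (chr2:104999656-105017080) was at 30.7, 30.6, 49.7 and 41.2 FPKM at day 0, 45.3, 43.45, 61.0 and 45.2 at day 2, 66.9, 75.4, 122 and 69.3 at day 4, and 54.9, 54.8, 54.0 and 44.3 at day 7. The day 4 libraries were the highest 4 of the 16. Its change was 1.10 ± 0.24 (SE, limma adjusted p = 0.0174), at 1.19 in batch 1 and 1.01 in batch 2. The pseudogene Gm7658, 98.5% identical over 1125 bases, held a median of 16.8% of the reads of both, and with it added in the change was 1.09. The call was lost without day 0 replicate 2, day 4 replicate 2 or day 4 replicate 3.

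Further eIF3 subunits with day 4 above day 0 in every library were Eif3c, Eif3d, Eif3e, Eif3g, Eif3j1 and Eif3j2. Eif3g was at 21.1 to 80.2 FPKM at day 0 and 93.2 to 135.5 at day 4, and its change of 1.30 ± 0.37 (SE) did not pass (limma adjusted p = 0.0572). Eif3d, which in human cells can bind the cap of some messenger RNAs, and Eif3e had changes of 1.02 ± 0.41 and 0.92 ± 0.33 (SE, limma adjusted p = 0.163 and 0.119). Of the exon bases of Eif3d, 43.3% lie in exons of Gm17638 on the other strand. That gene averaged 6.10 FPKM against 11.8 for Eif3d, and the kit does not mark strand, so the values of Eif3d are uncertain. The core subunit Eif3c had 0.92 ± 0.43 (SE, limma adjusted p = 0.232), while Eif3a, the largest subunit, was between 21.1 and 27.55 FPKM at day 4 and 15.7 and 35.1 at day 0. Eif3h, the most abundant subunit on average (109 FPKM), ranged from 39.0 to 179.6 FPKM within day 4.

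Eif3b, the core subunit with an RNA recognition motif (chr5:140419328-140443360), was called only in its fall from day 4 to day 7. It was at 36.0, 41.0, 10.4 and 51.5 FPKM at day 0, 33.2, 17.1, 34.0 and 44.35 at day 2, 43.6, 101.4, 118 and 71.9 at day 4, and 20.1, 5.005, 8.44 and 18.4 at day 7. Every day 7 library lay below every day 4 library, but day 7 overlapped days 0 and 2. From day 4 to day 7 it fell by 2.68 ± 0.53 on the log2 scale (SE, limma adjusted p = 0.0226), the largest of the 5 called falls, whereas its day 4 change against day 0, 1.35 ± 0.53, was not called (SE, limma adjusted p = 0.157). The fall was not called in 4 of the 16 fits that left out 1 library (day 4 replicates 2, 3 and 4 and day 7 replicate 2) and in 7 of 13 other settings, with changes of -3.15 to -2.25 over those 13.

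The eIF4 genes held 3 of the 7 calls. Eif4a1, the main helicase of the cap complex (chr11:69666936-69672423), was at 26.8, 31.3, 27.55 and 31.6 FPKM at day 0, 50.3, 39.75, 47.3 and 47.7 at day 2, 99.55, 98.5, 117 and 186.5 at day 4, and 31.6, 35.6, 49.7 and 21.2 at day 7. Days 0, 2 and 4 did not overlap each other, while 3 of the 4 day 7 libraries lay within the range of days 0 and 2 and replicate 4 lay below it. The change at day 4 was 2.01 ± 0.28 (SE, limma adjusted p = 0.00168), at 1.74 in batch 1 and 2.28 in batch 2. At day 2, where 1 factor of 46 (2.17%) and 3.37% of all genes had every library above day 0, the change of Eif4a1 was 0.64 ± 0.28 and not called (SE, limma adjusted p = 0.450). A pseudogene that is 99.9% identical over 1218 bases, Eif4a-ps4, held a median of 32.0% of the reads of both together, so how reads were split is uncertain. With 3 such copies added in, the day 4 change was 2.04.

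Eif4a3, a relative of eIF4A that sits in the exon junction complex rather than at the cap (chr11:119288363-119300089), was at 63.9, 54.2, 43.4 and 71.25 FPKM at day 0 and 79.95, 63.4, 48.5 and 42.9 at day 2. It was at 120.1, 127.8, 151.5 and 130.4 FPKM at day 4, and at 62.4, 63.9, 61.5 and 24.6 at day 7. Day 4 stood above all other libraries. Its change was 1.19 ± 0.30 (SE, limma adjusted p = 0.0319), and the call was lost in 7 of the 16 fits that left out 1 library, each of them a day 0 or day 4 library. The genes Eif4a3l1 and Eif4a3l2, which are 95.6% and 96.4% identical to Eif4a3, were at 2.21 to 3.62 and 6.16 to 7.75 FPKM at day 4. Their reads cannot be told apart with certainty from those of Eif4a3.

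Eif4e, the cap-binding protein (chr3:138526179-138559696), was at 22.0, 22.6, 25.4 and 26.8 FPKM at day 0, 24.7, 36.9, 18.8 and 25.9 at day 2, 49.55, 49.9, 50.5 and 82.8 at day 4, and 24.1, 35.6, 32.8 and 36.4 at day 7. The 4 day 4 values were the highest of the 16. The change was 1.20 ± 0.27 (SE, limma adjusted p = 0.0206), at 1.12 in batch 1 and 1.28 in batch 2, and it was not called without day 0 replicate 2, day 4 replicate 2 or day 4 replicate 4. The pseudogene Gm7327, 98.6% identical over 654 bases, held a median of 14.7% of the reads of both, and with it added in the change was 1.21. Its relative Eif4e2, a weak cap binder that represses translation, was at 11.7, 6.47, 0 and 6.76 FPKM at day 0, 3.085, 6.14, 15.4 and 14.03 at day 2, 11.8, 13.45, 7.43 and 9.001 at day 4, and 8.07, 5.02, 25.1 and 17.0 at day 7. Its change at day 4 was 1.10 ± 0.73 (SE, limma adjusted p = 0.430).

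The remaining eIF4 genes did not share this pattern in full. The scaffold Eif4g1 was low and uneven, at 7.85, 0.135, 0.0635 and 0.0199 FPKM at day 0, 0.0317, 5.52, 9.51 and 3.67 at day 2, 11.5, 7.61, 1.81 and 7.72 at day 4, and 2.74, 0.368, 0.950 and 0.0973 at day 7, with a day 4 change of 1.98 ± 0.83 (SE, limma adjusted p = 0.182). The second scaffold Eif4g3 was at 7.46, 3.80, 0 and 5.35 FPKM at day 0, 4.43, 1.665, 4.19 and 6.82 at day 2, 5.87, 0.834, 9.62 and 0 at day 4, and 1.47, 4.04, 0.0384 and 0.0826 at day 7. Its day 4 change was -0.24 ± 0.82 (SE, limma adjusted p = 0.899). Eif4g2, a scaffold that lacks the eIF4E site, was the most abundant of these, at 60.1 to 119.7 FPKM at day 0 and 35.1 to 81.0 at day 4, with a change of -0.65 ± 0.36 (SE, limma adjusted p = 0.337). The helicase cofactor Eif4h was at 30.4 to 59.75 FPKM at day 0 and 49.8 to 89.7 at day 4 (change 0.95 ± 0.40, SE, limma adjusted p = 0.186).

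Eif4b, the other helicase cofactor, was lowest at day 7. It was at 17.1, 29.8, 18.6 and 47.6 FPKM at day 0, 28.85, 5.42, 21.2 and 34.2 at day 2, 36.7, 43.1, 28.7 and 19.0 at day 4, and 14.8, 3.51, 1.99 and 5.74 at day 7. The day 7 libraries lay below all of day 0 and all of day 4. The changes, -2.13 ± 0.60 against day 0 and -2.36 ± 0.60 against day 4, were not called (SE, limma adjusted p = 0.170 and 0.0608).

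Eif5a (chr11:69916714-69921958) was the most abundant factor on average over the 16 libraries (363 FPKM), though second to Eif1 at day 0 (204 against 222), and gave the smallest p of all 46 in the 3 comparisons with day 4. Its values were 146, 211, 190.4 and 267 FPKM at day 0, 233.5, 185, 289.5 and 254 at day 2, 721, 758, 821 and 820.4 at day 4, and 199.7, 145, 261 and 304 at day 7. The day 4 libraries lay at or above 721 FPKM and every other library at or below 304. Against day 0 the change was 1.96 ± 0.20 (SE, limma adjusted p = 0.000179), at 2.07 in batch 1 and 1.86 in batch 2, and it ranked 5 of 14795 genes by p. None of its exon bases overlap another gene, and the pseudogene Eif5al3-ps held a median of 3.03% of the reads of both. The call held in all 16 fits that left out 1 library, at 1.87 to 2.07.

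The other eIF5 genes were not called. Eif5a2, the second hypusine protein, was at 2.31, 0.137, 0.0307 and 7.19 FPKM at day 0, 0, 0.0534, 0.0208 and 0 at day 2, 6.845, 0, 0 and 0 at day 4, and 0.0616, 4.78, 1.18 and 0 at day 7, too low for its change of -0.50 ± 0.78 (SE, limma adjusted p = 0.762) to be read. Eif5, which activates the GTPase of eIF2, ranged from 9.98 to 31.1 FPKM at day 0 and 30.9 to 56.8 at day 4. Eif5b, the subunit-joining GTPase, was between 2.29 and 10.3 FPKM in every library.

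Eif6, which keeps the large subunit from joining too early (chr2:155819832-155826925), was at 16.5, 25.6, 21.1 and 38.6 FPKM at day 0, 31.3, 25.3, 22.8 and 39.6 at day 2, 58.7, 86.2, 45.1 and 57.0 at day 4, and 21.7, 14.5, 51.3 and 23.65 at day 7. Day 4 lay above days 0 and 2 in every library but overlapped day 7. The change of 1.27 ± 0.37 did not pass the threshold (SE, limma adjusted p = 0.0595), and was called with Eif3g when genes needed 5 FPKM in 4 libraries.

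**Figure D4:**
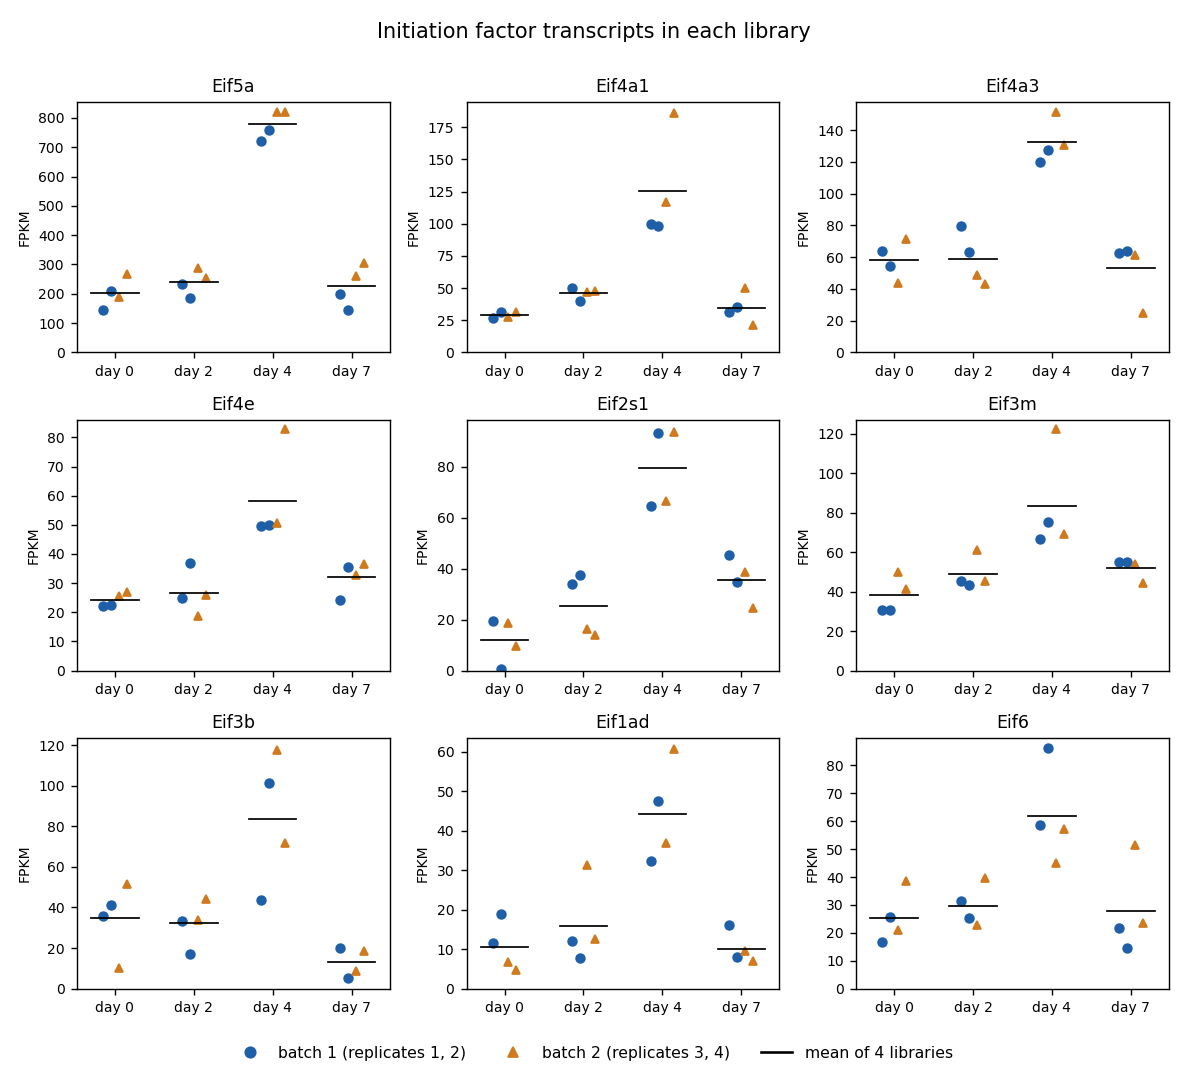
FPKM of 9 factors in each library by day, with batch 1 as circles, batch 2 as triangles and the mean of the 4 libraries as a bar. Eif5a and Eif4a1 show day 4 clear of the other days, and Eif3b shows day 7 at the bottom, between 5.005 and 20.1 FPKM.

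Days 2 and 4 had mice of the same age. Their libraries shared no full title code, and only day 2 had titles beginning with F, so these cannot be told apart from day by comparing these libraries alone. Between days 2 and 4, 2 of 46 factors rose, against 0.453% of all genes called in either direction, 0.433% higher and 0.0203% lower. They were Eif5a, by 1.71 ± 0.20 (SE, limma adjusted p = 0.00345), which ranked 1 of 14795 genes by p, and Eif4a1, by 1.37 ± 0.28 (SE, limma adjusted p = 0.0438). Both were called with the bipolar and Mueller glia covariate as well (limma adjusted p = 0.0127 and 0.0472). Eif5a held in all 16 fits that left out 1 library, and Eif4a1 in 2 of them, those without day 7 replicate 3 or replicate 4. Without both day 2 libraries whose titles begin with F (replicates 3 and 4) none was called, with changes of 1.70 and 1.32. With the full title code in place of the batch none was called either. The median change of the factors was 0.72, against 0.16 over all genes, and 14 of 46 factors (30.4%) and 7.83% of all genes had every day 4 library above day 2.

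From day 4 to day 7, 5 of the 46 factors fell and none rose, where 1.5% of all genes were lower, 0.128% higher and 1.63% were called in either direction. These were Eif5a, which fell by 1.83 ± 0.20 (SE, limma adjusted p = 0.00117), Eif4a1 by 1.84 ± 0.28 (0.00579), Eif3b (above), Eif4a3 by 1.39 ± 0.30 (0.0314) and Eif1ad by 2.06 ± 0.47 (0.0413), all on the log2 scale. The median was -0.81, against -0.25 over all genes, and 16 of 46 (34.8%) against 8.66% of all genes had every day 7 library below day 4. This comparison shares its day 4 libraries with the others, so its values are not separate evidence of the rise. After rescaling by median of ratios 1 factor, Eif5a, remained called, the shift of all genes being 0.32. With the covariate for other cells the count was 0 and no gene of all 14795 was called, with changes of -1.61 for Eif5a, -2.14 for Eif4a1, -3.15 for Eif3b, -1.42 for Eif4a3 and -3.12 for Eif1ad. That covariate was 2.73 to 4.50 at day 7, again without overlap with day 4. The count without day 7 replicate 4 was 3. Without any single day 4 library it was 2 or 3, and without day 7 replicate 2 it was 2.

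Neither day 2 nor day 7 differed from day 0 by a called factor. At day 2 the limma test called 0 of 46 and 3 (6.52%, against 9.73% of all genes) had an unadjusted p under 0.05 (Eif4g2, Eif4a1 and Eif2s1), while 0.311% of all genes were called, 0.25% higher and 0.0608% lower. At day 7 it called 0 and 6 (13.0%, against 12.1% of all genes) had an unadjusted p under 0.05, with 0.406% of all genes called, 0.27% higher and 0.135% lower. All 4 day 7 libraries lay above day 0 for 2 factors (Eif2b4 and Eif2s1; 2.51% of all genes) and below it for 1 (Eif4b; 2.5% of all genes). The lowest of the 6 was Eif4b, lower as given above, and Eif3e was higher by 1.03 ± 0.33 (SE, limma adjusted p = 0.229). Across the 4 days together, limma's F test called 3 factors, Eif4a1, Eif4a3 and Eif5a, and 2.89% of all genes. The difference of a change between the batches was called for 0 factors in each of the 5 comparisons of days (lowest limma adjusted p of 0.214, for day 4 against day 2). Of all 14795 genes, 0 to 10 were called. Each batch had 2 libraries a day, too few to show that the batches did not differ.

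In all, 6 pairs of paralogs were compared within each library, which removes the scale of the library. The FPKM of Eif4a1 was 0.749, 2.51, 3.38 and 0.976 times that of Eif4a2, its close paralog, at day 0, 1.73, 2.71, 5.30 and 6.58 times at day 2, 11.6, 10.9, 12.5 and 10.7 times at day 4, and 1.30, 1.56, 3.04 and 19.6 times at day 7. The day 4 ratios were the most even and lay above all of day 0. On log2(FPKM + 1) they averaged 3.39 ± 0.09 at day 4 and 0.62 ± 0.99 at day 0 (SD, n = 4). The difference was 2.77 (two-sided exact permutation p = 0.0286, the smallest that 4 against 4 allow, and 0.386 adjusted over 18 tests).

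Eif4a2 itself was at 35.8, 12.5, 8.16 and 32.3 FPKM at day 0, 29.1, 14.7, 8.94 and 7.245 at day 2, 8.575, 9.03, 9.34 and 17.5 at day 4, and 24.3, 22.8, 16.35 and 1.08 at day 7. Its day 4 change was -0.76 ± 0.68 (SE, limma adjusted p = 0.575), and the groups overlapped. The change was 0.03 with the bipolar and Mueller glia covariate.

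None of the 18 tests passed after adjustment, and the ratio of Eif4a1 to Eif4a2 at day 4 was the only one with an exact p under 0.05. As 4 against 4 cannot go below 0.0286 in the exact test, none could pass unless most of the 18 were under 0.05. The outcome therefore does not show that the ratios were unchanged. The ratio of Eif1 to Eif1b stayed between 1.61 and 3.41 in all libraries, though the level of Eif1 is uncertain because of its copies. Eif4e over Eif4e2 on log2(FPKM + 1) was 1.82 to 3.07 at day 4 and 0.86 to 4.72 at day 0, the highest being replicate 3, where Eif4e2 was listed at 0, and the difference was 0.10 (two-sided exact permutation p = 0.886). Eif4g1 over Eif4g3 was scattered from 0.00372 to 24.7. Eif5a over Eif5a2 rests on few reads of the latter. Eif3j1 and Eif3j2 kept a ratio of 0.360 to 0.572, with 99.4% identity over 2379 bases.

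Eif3j1, the loosely bound subunit of eIF3, was at 9.46, 13.3, 10.3 and 8.34 FPKM at day 0, 5.01, 8.15, 12.65 and 23.3 at day 2, 14.6, 24.4, 42.9 and 33.9 at day 4, and 10.2, 11.3, 8.92 and 1.23 at day 7. Eif3j2 followed at 17.4, 25.2, 19.6 and 17.8 FPKM at day 0, 9.71, 14.9, 25.8 and 48.5 at day 2, 29.3, 49.1, 88.1 and 70.3 at day 4, and 17.8, 22.3, 18.8 and 3.41 at day 7. Both had day 4 above day 0 in every library, with changes of 1.32 ± 0.57 and 1.42 ± 0.55 (SE, limma adjusted p = 0.199 and 0.151). Reads of this pair may have been divided by the counting, so the 2 rows are uncertain and are not independent.

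**Figure D5:**
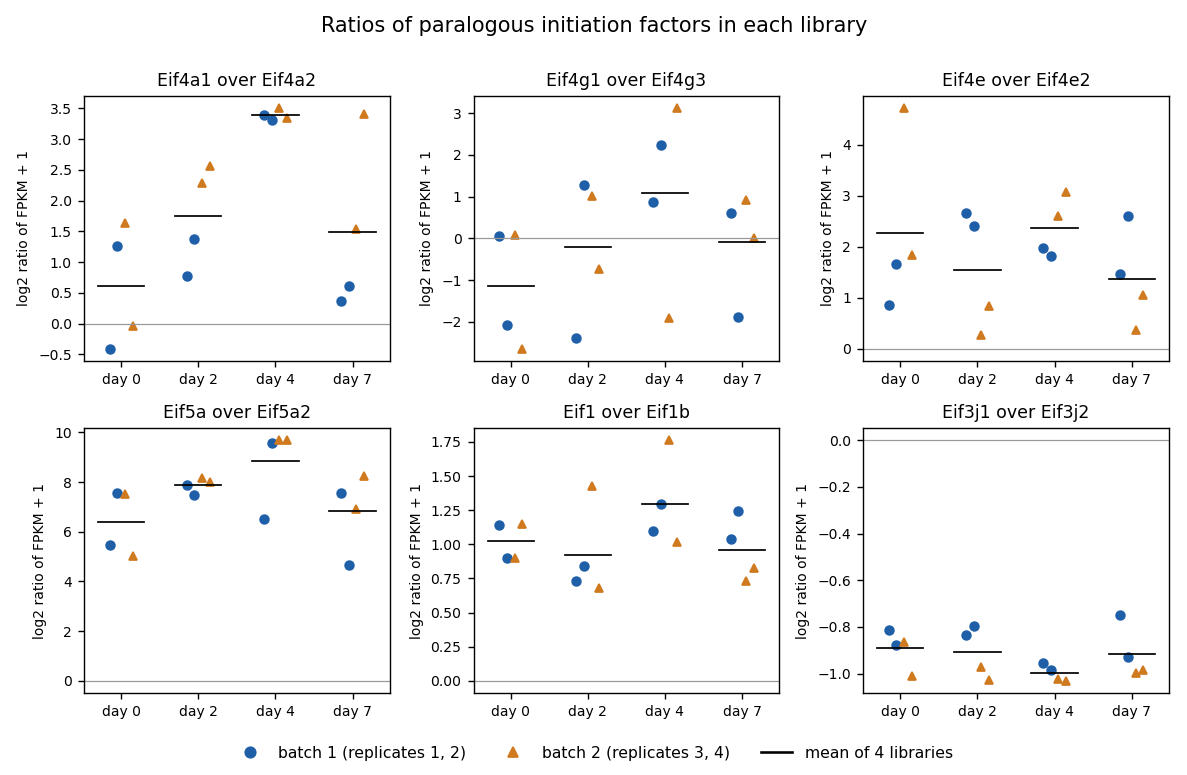
Log2 ratio of FPKM + 1 for 6 paralog pairs in each library by day, with batch 1 as circles, batch 2 as triangles and the mean as a bar. The ratio of Eif4a1 to Eif4a2 is tight at day 4, from 3.31 to 3.51, and ranges from -0.40 to 1.64 at day 0.

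Regulators, partners and later steps of translation were read from 8 lists of 47 genes, of which 44 were tested. At day 4 against day 0, 3 of the 44 were called higher and 1 lower, where 4.62% and 0.716% of all genes were. These counts are too small to set the lists apart from all genes. The median change was 0.16, the same as over all genes. Of 9 genes listed with the poly(A) and cap helpers, 1 rose. Denr, which recycles small subunits and restarts initiation, was at 7.80, 7.34, 9.73 and 15.3 FPKM at day 0 and 25.9, 31.5, 62.8 and 48.5 at day 4, a change of 1.94 ± 0.36 (SE, limma adjusted p = 0.0076). Of 7 tested genes listed with the elongation factors by symbol, 2 rose.

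Eef1d, a subunit of the exchange factor for eEF1A, was at 8.395, 10.1, 5.40 and 15.4 FPKM at day 0 and 26.0, 34.35, 75.5 and 36.4 at day 4 (change 1.99 ± 0.39, SE, limma adjusted p = 0.01). Eef1e1, a partner of the tRNA synthetase complex, was at 10.75, 3.125, 10.2 and 3.26 FPKM at day 0 and 25.7, 20.8, 79.9 and 43.2 at day 4 (change 2.45 ± 0.49, SE, limma adjusted p = 0.0109). For these 3 genes days 0 and 4 did not overlap. Eef1d was also the 1 gene of the lists called at day 7 against day 4, where 1.63% of all genes were called. It fell by 1.68 ± 0.39 on the log2 scale (SE, limma adjusted p = 0.0419), a call lost without any of 11 single libraries.

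Pdcd4, an inhibitor that binds the eIF4A helicase, was the 1 of 12 genes listed with mTORC1 and the upstream kinases that was called, and it was lower. Its values were 17.1, 30.7, 1.49 and 23.4 FPKM at day 0, 9.09, 7.03, 0.367 and 5.99 at day 2, 0.382, 3.455, 0.248 and 0.467 at day 4, and 27.1, 20.7, 2.055 and 3.63 at day 7. Day 0 replicate 3 lay inside the day 4 range, and the other 3 day 0 libraries above it. The change was -2.90 ± 0.71 (SE, limma adjusted p = 0.0303), and was not called in 6 of the 16 fits that left out 1 library. With the bipolar and Mueller glia covariate none of the 4 was called, with changes of 1.65 for Denr, 1.93 for Eef1d, 3.05 for Eef1e1 and -2.34 for Pdcd4.

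No gene was called at day 4 among the eIF2 kinases (3 tested), the 4E-binding proteins (3), the eIF2 phosphatase and stress response genes (4), the termination and recycling genes (4) or the hypusine enzymes (2). Eif2ak1, the most abundant kinase of the first list, was at 1.34 to 14.75 FPKM at day 0 and 10.55 to 22.3 at day 4. Eif4ebp1, which holds eIF4E off the cap complex, was at 0.314 to 32.2 and 19.85 to 64.7 FPKM. Atf4, the transcription factor whose translation rises when eIF2 is phosphorylated, was at 10.2 to 47.7 FPKM at day 0 and 22.0 to 53.5 at day 4. Etf1, which releases the finished chain at stop codons, was at 10.9 to 19.3 and 26.5 to 78.7 FPKM. Dhps, which begins the making of hypusine on eIF5A, was at 0.0997 to 19.9 FPKM at day 0 and 14.3 to 29.9 at day 4.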

How the data were processed

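Cells sorted from mouse retina were sequenced in bulk in 16 libraries. The deposited table gives FPKM per gene, made by the authors from reads mapped with STAR 2.7.2b and counted with featureCounts 1.6.1 on GRCm38.p6, per the submitters' processing notes. Nothing used here says what was done with multi-mapping reads. FPKM times length summed to the same total in each library, and all values were steps of 0.01 read (tolerance 0.02), 47.4% to 63.8% of them whole, so no count test was run. One read in 1 kb was worth 0.0637 to 0.1156 FPKM, and 0 allows up to 0.191 to 0.347 (3 reads, counting error only).

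The test took genes reaching 1 FPKM in 4 or more libraries, on log2(FPKM + 1), with limma 3.58.1 (R 4.3.3; lmFit, eBayes with trend), all libraries in 1 fit, with a mean per day and the batch from the titles, which the labels do not explain. This scale understates changes of low genes. Ratios had exact permutation tests (scipy 1.17.1, Python 3.11.15). Near-identical copies came from BLAST 2.17.0 (at least 95% over 200 bases). Values in every library and tests are given for called factors, the leading gene of a factor without calls, and paralogs. The factors, lists and rules were chosen with earlier results of these data known.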

Additional observations from a re-analysis of the deposited data

Results flagged for a closer look

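A library stood clear of the other 3 of its day in 17 of 184 groups examined (46 factors on 4 days, Dixon's ratio on log2(FPKM + 1) above its 95% critical value for 4 samples), where chance gives about 1 in 20, or 9.2. Day 7 replicate 4 accounted for 7 of the 17, and was also the library with the fewest genes at 1 FPKM. In it Eif1a was at 0.223 FPKM, Eif3j1 at 1.23, Eif3j2 at 3.41, Eif4a2 at 1.08, Eif4a3 at 24.6 and Eif3m at 44.3, each below its other 3 day 7 libraries. Eif2b4, at 25.8 FPKM, was above them.

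Day 0 replicate 1 was above its group for Eif4g1 at 7.85 FPKM, Eif4enif1 (a protein that shuttles eIF4E into the nucleus) at 3.40 and Eif4h at 59.75. At day 0, Eif3d was low in replicate 3 at 4.24 FPKM. At day 2, Eif3e was low in replicate 4 at 12.7 FPKM, Eif4enif1 was low there at 0.0223, and Eif3m was high in replicate 3 at 61.0. At day 4, Eif4e at 82.8 FPKM and Eif4a2 at 17.5 were high in replicate 4, and Eif5a2 at 6.845 in replicate 1, the other 3 libraries being listed at 0. The causes were not tested.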

How the results depend on the processing

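The rise of Eif5a and Eif4a1 at day 4 against day 0 was called in all 16 fits that left out 1 library and in 11 of 13 other settings, the exceptions being the bipolar and Mueller glia covariate and batch 2 alone. Over 45 described changes and 1293 alternatives, 1079 kept their direction and stayed called or stayed uncalled, 188 lost the call, 11 gained it and 15 turned sign. Many of the 45 were uncalled in the main fit and had no call to lose, so the 188 fall on the called changes only. Leaving out 1 library gave 2 to 9 factors called at day 4 against day 0, 1 to 3 at day 4 against day 2, 2 to 6 at day 7 against day 4 and 2 to 5 in the F test, and 3 to 6 and 0 to 2 other translation genes at day 4 against day 0 and day 7 against day 4.

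Of the factors at day 4 against day 0 (7), 2 were called with no filter, median-of-ratios scaling or batch 1 alone, 4 with the full title code, and 0 with the covariate or batch 2 alone. Of other translation genes there (4), 2 were called with scaling, 1 with batch 1 or only these days, and 0 with the covariate or batch 2. At day 4 against day 2 (2), 1 was called with a pseudocount of 0.1, no filter, scaling, no batch term or only these days, and 0 with the title code, either batch, no trend or without the F libraries. At day 7 against day 4 (5), 3 were called with the title code or no trend, 2 with no filter, 1 with scaling or only these days, and 0 with the covariate or either batch. Of other genes there (1), 2 were called with 5 FPKM or the title code and 0 with a pseudocount of 0.1, no filter, scaling, no batch term, the covariate, either batch, no trend, without the F libraries or only these days. The F test (3) called 7 with 5 FPKM, 1 with the covariate and 0 in either batch. The causes were not tested, beyond fewer samples where libraries were left out.

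With a replicate block, 6 factors were called at day 4 against day 0, 1 at day 4 against day 2, 3 at day 7 against day 4 and 2 in the F test, with 0 other genes at day 7 against day 4. Whether the numbers pair libraries was not settled. The 24 same-number correlations ran from -0.0562 to 0.234, 5 above 0.1, and 6 of 16 libraries correlated best with their own number. Those 24 of the same batch but another number ran from -0.0428 to 0.184, 4 above 0.1.

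Signs turned only for uncalled changes at day 4 against day 0. With scaling Eif1 was -0.0318 and Eif1b -0.30, and Eif1b was -0.14 with the title code and -0.0726 in batch 1. Eif4a2 was 0.0346 with the covariate. Eif4g3 was 0.0789 with the title code, 0.17 with the covariate, 0.37 in batch 2, and -0.95 to 0.29 leaving out 1 library (0.04, 0.12, 0.20 and 0.29 where positive). Eif5a2 was 0.19 with the title code, 0.53 in batch 1, and -1.24 to 0.22 leaving out 1 library.

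No count test was run, a fall near 1 FPKM cannot be measured well at this depth, and age cannot be told apart from day except between days 2 and 4.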
